A study of Mus musculus with 56 samples.

Results

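The libraries described here are the wild-type (WT) TH1 libraries of an RNA-seq study of mouse CD4+ helper T cells, chosen by their labels as WT and TH1. They number 7 of the 55 libraries in the 2 count tables of the study, 4 in the table of the Odc experiment and 3 in the table of the Dohh experiment. Each was set against the WT TH2, TH17 and Treg libraries of its own table (7 libraries of each subset over both tables, 28 WT libraries in all), and the Dohh table served as the repeat of the Odc table. These 2 experiments deleted ornithine decarboxylase (Odc) or deoxyhypusine hydroxylase (Dohh), which act in polyamine and hypusine synthesis, in T cells with CD4-cre. The deficient libraries are not analysed here. WT mice were the C57BL/6 controls of the floxed Odc or floxed Dohh breeding that lacked Cre recombinase. By the methods of the study, mice of both sexes were used, typically as young adults, and the age of each animal is not given in the labels.

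CD4+ T cells, naive ones by the methods of the study, came from spleen and lymph nodes and were cultured for 4 days on anti-CD3 (5 µg/ml) with soluble anti-CD28 (2 µg/ml) and IL-2 in every subset, TH17 included. On top of this, TH1 medium held IL-12 at 10 ng/ml, IL-2 at 10 ng/ml and anti-IL-4 at 4 µg/ml. TH2 medium held IL-4 and IL-2 at 10 ng/ml each with anti-IFN-γ at 4 µg/ml. TH17 medium held IL-6 and TGF-β at 5 ng/ml each and IL-1β, with anti-IL-4 and anti-IFN-γ at 10 µg/ml each. Treg medium held TGF-β and IL-2 at 10 ng/ml each with anti-IL-4 and anti-IFN-γ at 4 µg/ml each. TH1 was therefore the subset grown with IL-12 and the one grown without IFN-γ blockade, so subset, added cytokine and blocked cytokine cannot be told apart in any comparison here. In bulk libraries a smaller share of cells that express a gene and less RNA per cell cannot be told apart either.

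TH1 cells are the helper T cells that arm macrophages and CD8+ T cells against intracellular microbes, mainly through interferon-γ (IFN-γ). IL-12 acts through its receptor on the transcription factor STAT4, IFN-γ acts through a receptor of its own, and both lead to T-bet (encoded by Tbx21), which switches on Ifng and represses the genes of the other lineages. IL-12 and IFN-γ signalling thus form a loop in which the cytokine made by the cell raises the regulator of its own gene.

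Values are counts scaled to a common library total (CPM, scaled by TMM), given per library in the order of the replicate numbers, and differences are log2 fold changes of TH1 over another subset ± SE. A gene was called where edgeR's quasi-likelihood test gave a Benjamini-Hochberg adjusted p below 0.05 over all genes and an absolute log2 fold change above 1. Total counts ranged from 6978044 to 9145214 in the Odc WT libraries and from 8328721 to 12576933 in the Dohh WT libraries. No replicates were near-identical. Xist and the Y-linked Ddx3y were both present in replicate 1 of every subset in the Odc table, while the other replicate numbers held one of them at or near 0. TH1 replicate 4 of the Odc table stood apart from the other TH1 libraries of that table in several genes below, Ifng among them. Results that rest on it are given with and without it. Over all genes, the pairs of libraries furthest apart within each subset of that table were pairs with replicate 4. That the samples came from separate mice is not stated for each library, so the p-values measure the spread between these samples. The fits took the libraries as unpaired and left out the replicate numbers, except where a replicate block is named.

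The genes that define each lineage separated the libraries by their labels. Ifng (chr10:118441046-118445892, mm10), which encodes IFN-γ, was at 601, 708, 523 and 1889.8 CPM in the TH1 libraries of the Odc table. In the other subsets of that table Ifng lay between 3.60 to 23.8 CPM, so no library of another subset came near the lowest TH1 library. The log2 fold change of Ifng was 6.96 ± 0.57 over TH2, 6.35 ± 0.54 over TH17 and 6.14 ± 0.53 over Treg (edgeR adjusted p = 1.2e-07, 1.1e-07 and 7.2e-08). Without TH1 replicate 4 these were 6.35, 5.74 and 5.53. In the Dohh table Ifng was at 203, 248 and 280.0 CPM in TH1 and at 2.13 to 6.28 CPM elsewhere, with log2 fold changes of 6.30, 6.67 and 5.66. Among the other subsets the highest Ifng libraries were those of replicate 4 in the Odc table, at up to 23.8 CPM in TH17.

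Tbx21 (chr11:97098071-97115331, mm10), the gene of T-bet, was at 125, 148, 120.1 and 202 CPM in TH1 of the Odc table. It was at 11.1, 9.59, 13.7 and 23.7 CPM in TH2, 2.87, 2.65, 4.94 and 3.35 in TH17 and 8.70, 5.62, 10.2 and 24.6 in Treg. TH2 and Treg libraries overlapped each other and TH17 libraries lay below all of them. The log2 fold changes of Tbx21 in TH1 were 3.36 ± 0.36, 5.42 ± 0.42 and 3.60 ± 0.37 over TH2, TH17 and Treg, and without TH1 replicate 4 they were 3.18, 5.23 and 3.42. Tbx21 of the Dohh table was at 77.6, 115 and 83.5 CPM in TH1, and the differences were 3.25 ± 0.20, 5.16 ± 0.24 and 4.24 ± 0.22. TH17 was again the subset furthest from TH1 in Tbx21, although in Ifng the order of the other subsets differed between the tables.

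Defining genes of the other lineages were lower in TH1 than in the subset they mark. Gata3, the TH2 regulator, was at 10.3, 5.79, 8.93 and 4.53 CPM in TH1 and 272, 266, 261 and 231 in TH2 of the Odc table. Il4, the TH2 cytokine gene, stayed between 0.434 to 0.880 CPM in TH1 against 35.4 to 69.9 in TH2. Foxp3, the Treg regulator, was at 6.16, 6.94, 6.88 and 5.26 CPM in TH1 and 422, 474, 403 and 620.4 in Treg. Foxp3 was lowest in TH2 and not in TH1, with TH1 over TH2 by 0.85 ± 0.28 in the Odc table, which was not called, and by 1.49 ± 0.20 in the Dohh table, which was called but not with all 8 groups in the fit (edgeR adjusted p = 0.094). Il17a, the TH17 cytokine gene, was at 0.434 to 1.17 CPM in TH1 against 270.5 to 409.7 in TH17. Each of Gata3, Il4, Foxp3 and Il17a was again lower in TH1 than in its own subset in the Dohh table, with TH1 ranges of 8.57 to 10.8, 0.348 to 1.34, 7.17 to 8.67 and 0.929 to 2.33 CPM. The label TH1 therefore matched its markers Ifng and Tbx21 in all 7 libraries.

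**Figure D1:**
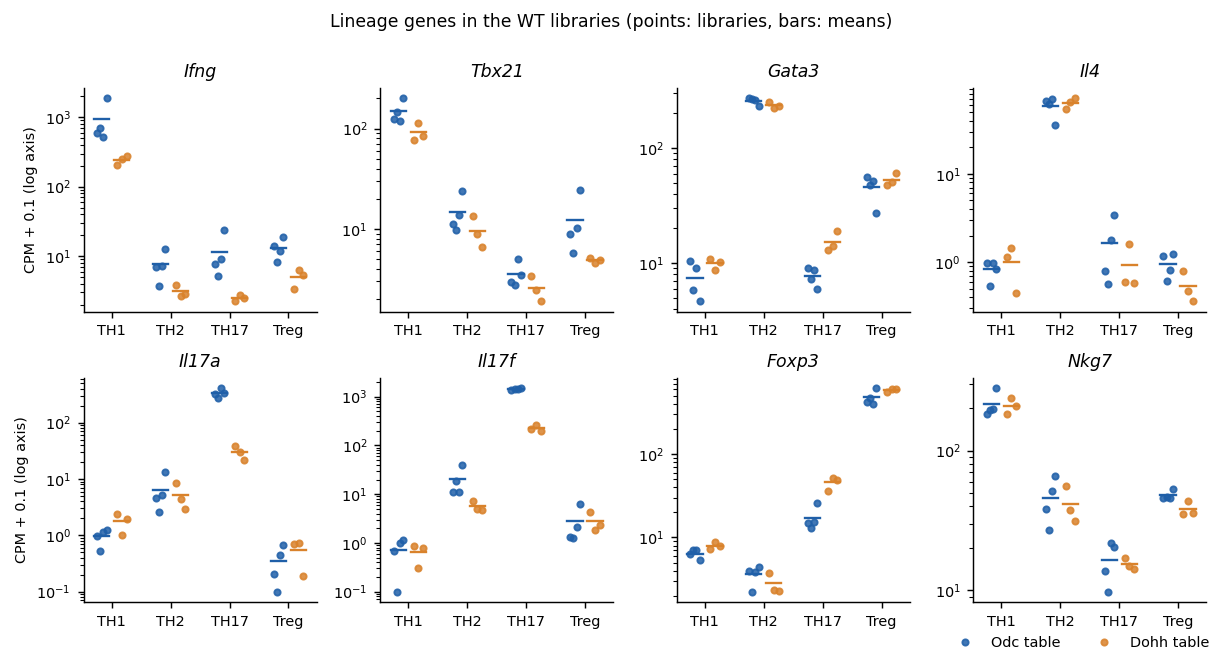
CPM + 0.1 on a log axis for 8 genes (Ifng, Tbx21, Gata3, Il4, Il17a, Il17f, Foxp3 and Nkg7) in the WT TH1, TH2, TH17 and Treg libraries of the Odc table (4 per subset) and the Dohh table (3 per subset); points are libraries and bars are means. Ifng, Tbx21 and Nkg7 are highest in TH1 in both tables, while Gata3 and Il4 peak in TH2, Il17a and Il17f in TH17, and Foxp3 in Treg.

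Of 12878 genes tested in the Odc table, TH1 was higher than TH2 in 602 (4.67%) and lower in 559 (4.34%). TH1 was higher than TH17 in 1154 genes (8.96%) and lower in 760 (5.9%), and higher than Treg in 1386 (10.8%) and lower in 1068 (8.29%). Of 12825 genes tested in the Dohh table the counts were 693 (5.4%) and 565 (4.41%) against TH2, 1056 (8.23%) and 1001 (7.81%) against TH17, and 1311 (10.2%) and 1128 (8.8%) against Treg. In both tables TH2 was thus the subset with the fewest called genes against TH1 and Treg the one with the most. The 3 contrasts of a table share its TH1 libraries.

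Genes that passed against all 3 subsets in one direction were fewer. In the Odc table, 222 genes (1.72%) were higher in TH1 than in each other subset and 87 (0.676%) were lower than in each. In the Dohh table these were 231 (1.8%) and 126 (0.982%). Without TH1 replicate 4 the Odc counts were 237 and 91. Among the 12185 genes tested in both tables, 204 were higher than in each in the Odc experiment and 204 in that of Dohh, and 130 of them were shared, which is 63.7% of each list. Of the 204 Odc genes, 195 (95.6%) had the same direction against each subset in the Dohh table and 0 were called in the opposite direction against each. For genes lower in TH1 than in each other subset, 41 were shared, 47.7% of the 86 Odc genes and 37.3% of the 110 Dohh genes, and 81 of the 86 (94.2%) kept their direction.

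Genes furthest above every other subset were ranked in the Odc table by their log2 fold change over the nearest other subset, and the 15 highest with at least 5 CPM in TH1 are described by role. The genes were chosen on the Odc values, so those values are a description and the Dohh values are the independent measure. Beside Ifng and Tbx21 the 15 held 1 further cytokine gene, cell-surface and guidance molecules, enzymes and a member of the serpin family. Of the 14 tested in the Dohh table (C230014O12Rik was not), all 14 were called higher than each other subset there.

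Il23a encodes the p19 subunit of IL-23, a cytokine best known for sustaining TH17 cells. It was at 7.78, 5.35, 7.90 and 3.22 CPM in TH1 of the Odc table and at 0 to 1.02 CPM elsewhere. TH1 libraries of the Dohh table held 2.76, 2.37 and 3.59 CPM and all TH17 libraries held 0, a difference of 2.94 ± 0.43 from TH2 and at least 9.68-fold from TH17 (the bound sets the other group at 3 counts per library). Il23r, the receptor subunit that binds this cytokine, was also present in TH1, at 15.4, 15.3, 13.02 and 19.3 CPM in the Odc experiment and 13.8, 9.70 and 9.85 in that of Dohh. Against TH17, Il23r was not called in the Odc table (log2 fold change -0.33 ± 0.20) and was called higher in TH1 in the Dohh table (1.32 ± 0.25).

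Sema3b, a secreted semaphorin, was at 131, 144, 113 and 148 CPM in TH1 and at 0.807 to 5.08 elsewhere in the Odc table. TH1 of the Dohh table held 53.9, 71.5 and 62.8 CPM and the smallest difference was 4.16 ± 0.21 over Treg. Sema3f and Sema4a, of the same family, were also among the 130 genes higher in both tables. Chl1, a cell adhesion molecule of the L1 family known from neurons, was at 15.4, 15.5, 15.8 and 20.8 CPM in TH1. It was at 0 in all TH2 libraries of both tables and at no more than 0.472 CPM in the TH17 and Treg libraries of the Odc table. In the Dohh table Chl1 was at 8.12, 5.99 and 7.30 CPM in TH1, at least 23.3-fold above TH2 and 23.7-fold above TH17, while 1 Treg library was at 0.231 CPM and the others at 0.

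Bst1 encodes CD157, a surface enzyme that makes cyclic ADP-ribose. It was at 24.6, 17.8, 28.4 and 12.7 CPM in TH1 of the Odc table and 26.9, 19.8 and 24.1 in the Dohh table, with differences in the Dohh table of 3.70 ± 0.31, 3.76 ± 0.31 and 4.59 ± 0.33 over TH2, TH17 and Treg. Pmp22, a membrane protein of peripheral myelin, was at 6.16, 10.3, 4.54 and 14.9 CPM in TH1 against 0.104 to 1.28 elsewhere, and its smallest difference in the Dohh table was 3.15 ± 0.53. Ms4a6d, a membrane protein of the CD20 family, was at 10.3, 9.84, 8.93 and 11.3 CPM against 0.312 to 1.36. Its difference from TH2 was 2.59 ± 0.39 in the Dohh table.

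Plac8, a small cysteine-rich protein, was at 495, 487, 491 and 578 CPM in TH1, 18.8 to 29.5 in TH2, 42.0 to 48.0 in TH17 and 4.48 to 7.07 in Treg of the Odc table. TH1 of the Dohh table held 232, 239 and 291 CPM, with differences of 2.97 ± 0.17, 3.46 ± 0.17 and 5.02 ± 0.19. The order TH1, then TH2 and TH17, then Treg held in both tables, with TH17 above TH2 in the Odc table and below it in the Dohh table.

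Serpinb5 encodes maspin, a protein of the serpin family. It was at 178, 207, 153 and 190.4 CPM in TH1, 16.8, 22.6, 16.04 and 7.73 in TH17 and 3.34, 2.26, 3.36 and 1.28 in TH2 of the Odc table, and at 0 in all 7 Treg libraries of both tables. Over Treg it was at least 546-fold higher in the Odc experiment and at least 423-fold higher in that of Dohh. Its smallest difference in the Dohh table was 2.53 ± 0.16 over TH17, where TH1 libraries held 105, 137 and 124 CPM. Serpinb9 and Serpinb9b, of the same family, were also higher in TH1 than in each other subset in both tables.

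Dnah3 (chr7:119922671-120095280, mm10), an axonemal dynein heavy chain of cilia, was all but absent outside TH1. TH1 libraries held 9.98, 13.02, 6.00 and 13.2 CPM in the Odc experiment and 2.07, 2.79 and 3.13 in that of Dohh. All 12 libraries of the other subsets in the Odc table were at 0, and in the Dohh table, 8 of 9 were at 0 and 1 TH2 library was at 0.115 CPM. It was at least 26.3-fold above TH2 in the Odc experiment, and at least 8.85-fold above TH17 and 9.21-fold above Treg in that of Dohh. Dclk1, a microtubule-associated kinase, was at 34.5, 59.6, 27.4 and 86.7 CPM in TH1 against 0.673 to 4.57 elsewhere, and at 34.9, 56.4 and 36.6 against 0.537 to 4.30 in the Dohh table. St6galnac5, a sialyltransferase, was at 5.28, 8.82, 4.39 and 3.36 CPM in TH1 and at or under 0.326 CPM elsewhere in the Odc table, with a smallest difference of 2.90 ± 0.52 in the Dohh table.

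Mt3, a metallothionein that binds zinc, was at 15.4, 19.1, 17.3 and 45.9 CPM in TH1 of the Odc table, where replicate 4 was highest, and at 13.8, 19.1 and 14.1 in the Dohh table. TH2 was the nearest subset in both tables, 3.71 ± 0.41 and 3.15 ± 0.32 log2 units below. C230014O12Rik, listed without a described function, was at 5.87, 7.23, 5.12 and 5.41 CPM in TH1 and at no more than 0.714 CPM elsewhere in the Odc table.

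**Figure D2:**
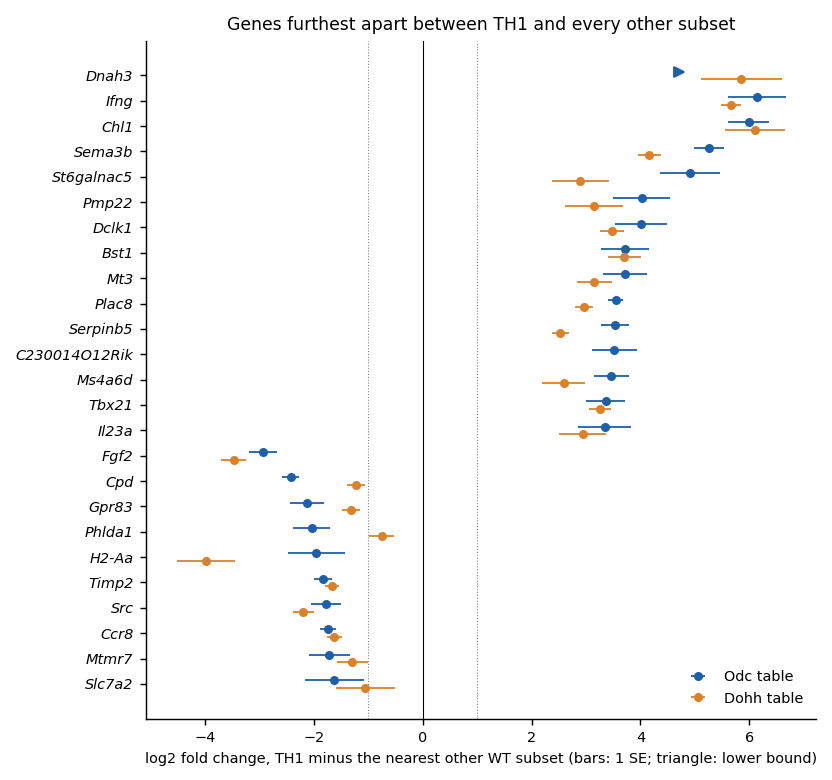
Log2 fold change of TH1 over the nearest other WT subset (points, with bars of 1 SE) for the 15 genes highest and the 10 genes lowest in TH1 by the ranking in the Odc table, in the Odc and the Dohh table; dotted lines mark a log2 fold change of 1 in each direction. The triangle for Dnah3 in the Odc table is a lower bound of 4.72 without an error, since all other libraries were at 0, and its Dohh point rests on 1 count over the TH2 libraries. The Odc point of St6galnac5 and the Dohh points of Chl1 and Dnah3 are fitted values. Their nearest groups held 3 counts or fewer in every library, so these points are not exact folds. All 14 higher genes tested in the Dohh table lie beyond the dotted line there, while Phlda1 lies inside it at -0.76.

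The 10 genes furthest below every other subset were chosen the same way with at least 5 CPM in each other subset. Of these, 8 were called lower than each in the Dohh table, and Phlda1 and Slc7a2 were not. Fgf2, fibroblast growth factor 2, was the furthest below. It was at 3.08, 6.51, 2.05 and 3.36 CPM in TH1, 204, 213, 181 and 220.0 in TH2, 23.7, 26.5, 22.1 and 43.7 in TH17 and 108, 106, 109 and 95.6 in Treg of the Odc table. TH1 of the Dohh table held 2.76, 5.99 and 1.85 CPM, with log2 differences of -4.98, -3.48 and -4.04 from TH2, TH17 and Treg. TH2 was highest, Treg next and TH17 after it in both tables, with no overlap between TH1 and any other library.

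Cpd, carboxypeptidase D, a membrane-bound enzyme that trims basic residues from peptides, was at 11.2, 14.8, 9.95 and 11.8 CPM in TH1, 57.1, 63.9, 50.4 and 86.5 in TH2, 744, 714, 726 and 768 in TH17 and 426, 377, 368 and 420.4 in Treg. The mean ± SD in the Dohh table was 16.9 ± 2.87 CPM in TH1, 39.9 ± 5.73 in TH2, 336 ± 17.04 in TH17 and 253 ± 56.7 in Treg (n = 3 each). TH1 and TH2 libraries were low and those of the 2 subsets grown with TGF-β were high in both tables. The difference of TH1 from TH2, TH17 and Treg was larger in the Odc table, with Odc minus Dohh values of -1.18 ± 0.24, -1.62 ± 0.23 and -1.14 ± 0.23 log2 units (edgeR interaction, adjusted p = 0.024, 2.7e-05 and 0.0018).

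Ccr8, the receptor of CCL1 on TH2 and Treg cells, was at 6.46, 6.94, 7.17 and 7.17 CPM in TH1, 130.3 to 150.3 in TH2, 21.3 to 25.4 in TH17 and 109.7 to 169.7 in Treg of the Odc table. Levels in Dohh TH1 libraries were 10.6, 11.8 and 8.34 CPM and the differences were -2.80 ± 0.14, -1.63 ± 0.14 and -3.59 ± 0.14. Gpr83, a G protein-coupled receptor found on Treg cells, was at 3.81, 3.62, 3.95 and 1.90 CPM in TH1 against 12.3 to 57.8 elsewhere, and -1.32 log2 units from its nearest subset, TH17, in the Dohh table. Src, the founding Src-family kinase, was at 1.61 to 3.18 CPM in TH1 against 5.27 to 28.6 elsewhere. Its difference from TH17 was -1.78 ± 0.27 in the Odc experiment and -3.22 ± 0.19 in that of Dohh.

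Timp2, an inhibitor of matrix metalloproteinases, was at 3.66 to 6.15 CPM in TH1, 14.9 to 20.3 in TH2, 25.4 to 35.4 in TH17 and 48.7 to 59.982 in Treg of the Odc table, and the same order held in the Dohh table. Mtmr7, a lipid phosphatase of the myotubularin family, was -1.30 ± 0.28 from its nearest subset, TH17, in the Dohh table. Slc7a2, a cationic amino acid transporter, was -1.63 ± 0.54 from Treg in the Odc table (adjusted p = 0.019) and -1.06 ± 0.54 in the Dohh table (adjusted p = 0.11, not called). Without TH1 replicate 4 the Odc value of Slc7a2 was -1.36 (edgeR adjusted p = 0.057), and with a replicate block the Dohh value was -1.03 (adjusted p = 0.03). Phlda1, a pleckstrin-homology-like protein, was called lower than Treg in both tables, and its differences from TH2 and TH17 in the Dohh table were -0.89 ± 0.23 and -0.76 ± 0.23.

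H2-Aa, a class II MHC chain of antigen-presenting cells, was at 1.91, 2.03, 3.51 and 3.95 CPM in TH1 against 5.19 to 37.3 elsewhere in the Odc table. It was, in the Dohh table, at 0.432, 0.206 and 1.16 against 8.23 to 25.2. Marker genes of other cell types were mixed. Cd79b, of B cells, was at 1.65 to 2.50 CPM in TH1 and 14.9 to 22.5 in TH2 of the Dohh table, and in the Odc table it was not called against TH17 or Treg. Lyz2, of myeloid cells, was at 0.145 to 0.585 CPM in TH1 against 10.3 to 26.9 in TH17 and 12.1 to 25.6 in Treg of the Odc table. S100a9, of neutrophils, was at 0 in all 7 TH1 libraries, while Ly6g, another neutrophil marker, made up most of the TH1 myeloid sum given below. The whole myeloid list was mixed. Of 10 markers tested in the Odc table, 2 were higher and 1 lower in TH1 than in TH2, 1 and 6 than in TH17, and 2 and 5 than in Treg, beside 4.67% and 4.34%, 8.96% and 5.9%, and 10.8% and 8.29% of all genes tested. Of 9 in the Dohh table, 1 and 2, 0 and 5, and 3 and 5 were, beside 5.4% and 4.41%, 8.23% and 7.81%, and 10.2% and 8.8% of all genes. For each list described here, a count of 0 by edgeR was also 0 by DESeq2 unless stated, and 2 of the myeloid markers were higher than in TH17 of the Dohh table at an unadjusted p under 0.05. The part of remaining antigen-presenting cells in the H2-Aa difference was not tested.

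Of 9 B cell markers tested in the Odc table, 0 were higher and 6 lower in TH1 than in TH2 (0 higher also by DESeq2 and at an unadjusted p under 0.05), 4 higher and 1 lower than in TH17, and 6 higher and 1 lower than in Treg, where all genes gave 4.67% and 4.34%, 8.96% and 5.9%, and 10.8% and 8.29%. Of 8 in the Dohh table, 0 and 5, 0 and 4, and 3 and 2 were, where all genes gave 5.4% and 4.41%, 8.23% and 7.81%, and 10.2% and 8.8%. At an unadjusted p under 0.05 there, 0 were higher than in TH2 and 1 than in TH17. The marker called lower than in Treg of the Odc table was Ighm, the IgM heavy chain and the most abundant of the list, at 40.7 CPM in TH1 and 237 in Treg. Summed over 10 B cell markers, Odc TH1 libraries held 69.4 to 154 CPM and Dohh TH1 libraries 64.4 to 82.8, against 132 to 329 and 124 to 218 in TH2 and 223 to 269 and 293 to 306 in Treg. In TH17 the sum was 106 to 126 in the Odc table, within the TH1 range, and 258 to 276 in the Dohh table. Of the 15 myeloid markers, 5 were at 0 in all TH1 libraries of the Odc table and 7 in those of the Dohh table. The myeloid sum was 125 to 162 and 75.8 to 99.6 CPM in TH1, most of it from Ly6g at 119 and 63.6 CPM, which was at 0 in all 7 Treg libraries. It was 30.8 to 38.3 and 30.3 to 45.5 CPM in TH2, 71.6 to 159.6 and 68.8 to 100.97 in TH17, and 25.4 to 58 and 31.2 to 36 in Treg. The 14 T cell identity genes (CD3 chains, Cd4, Lck and others) summed to 5885 to 6932 CPM in TH1 of the Odc table and 6427 to 7037 in the Dohh table. By edgeR and by DESeq2, 0 of the 14 were called against TH2 or Treg in either table, and 1 against TH17 in the Odc table. At an unadjusted p under 0.05 with no fold threshold 8 differed from TH2 and 10 from Treg in the Odc table, and 6 and 5 in the Dohh table.

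CD8 T and NK cell markers summed to 153 to 232 CPM in TH1, 29.3 to 47.8 in TH2, 233 to 288 in TH17 and 65.3 to 99.1 in Treg of the Odc table. Of 9 tested there, 6 were higher and 0 lower than in TH2, 3 and 3 than in TH17, and 6 and 0 than in Treg, and of 8 in the Dohh table, 5 and 0, 2 and 3, and 4 and 0 were. The shares of all genes tested were 4.67% and 4.34%, 8.96% and 5.9%, and 10.8% and 8.29% in the Odc experiment and 5.4% and 4.41%, 8.23% and 7.81%, and 10.2% and 8.8% in that of Dohh. At an unadjusted p under 0.05, 1 marker was lower than in each of TH2 and Treg in the Odc table, and 1 and 2 in the Dohh table. Klrk1, the activating receptor NKG2D, was higher in TH1 than in each other subset in both tables, with its smallest differences 1.31 ± 0.27 and 1.54 ± 0.25 over TH17. Cd8a, the defining CD8 T cell gene, was at 3.96, 3.33, 6.15 and 21.8 CPM in TH1 of the Odc table, with replicate 4 above the rest, and was not called in any of the 6 contrasts. In replicate 4 it was also high in the other subsets, at up to 28.9 CPM in Treg. The part of CD8 T cells in the differences described below was not tested, while Cd8a in the Dohh table was at 3.10 to 6.14 CPM in TH1 and 2.47 to 11.4 elsewhere.

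The TH1 program list has 28 genes, of which 27 were tested in each table. In the Odc table, 19 were higher than in TH2 and 0 lower (DESeq2 also called 0 lower, and 0 were lower at an unadjusted p under 0.05), 16 higher and 1 lower than in TH17, and 15 higher and 2 lower than in Treg. All genes tested gave 4.67% and 4.34%, 8.96% and 5.9%, and 10.8% and 8.29%. Counts in the Dohh table were 18 and 0 (also 0 lower at an unadjusted p under 0.05), 17 and 2, and 16 and 1, beside 5.4% and 4.41%, 8.23% and 7.81%, and 10.2% and 8.8% of all genes. The median log2 fold change of the list was 2.03, 1.22 and 1.38 in the Odc table and 1.91, 1.78 and 1.37 in the Dohh table, against a median no further than 0.01625 from 0 over all genes tested. Against each other subset at once, 8 were higher in the Odc table (Gzmb, Havcr2, Hlx, Ifng, Il12rb2, Lta, Nkg7 and Tbx21). The same 8 were higher in the Dohh table, with others that included Ccl3, Ccl4, Cxcr3, Fasl and Furin. Against Treg there, Ccl3 (1.06) was 0.97 without TH1 replicate 2 and 0.93 without Treg replicate 2. Ccl4 (1.06) was 0.91 without TH1 replicate 3 and 0.97 without Treg replicate 1, so neither call held in those fits. When the test asked for a change beyond 2-fold (edgeR glmTreat), the Odc calls of Il12rb2, Gzmb and Havcr2 over TH2 were lost (adjusted p = 0.97, 0.38 and 0.16). That of Lta over Treg was lost too (adjusted p = 0.32), as was that of Havcr2 over TH2 in the Dohh table (adjusted p = 0.65). Ifng and Tbx21 kept their calls in that test.

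Hlx, a homeobox factor that acts with T-bet, was at 37.4, 29.4, 40.4 and 29.2 CPM in TH1 against 0.312 to 6.57 elsewhere in the Odc table. Its differences were 2.93 ± 0.30, 3.89 ± 0.32 and 6.22 ± 0.40, and in the Dohh table, 3.29 ± 0.30, 5.13 ± 0.37 and 7.10 ± 0.46. Lta, which encodes lymphotoxin-α, was at 748, 864, 704 and 905 CPM in TH1 and 639, 809 and 669 in the Dohh table, and its nearest subset was Treg (1.38 ± 0.34 and 1.79 ± 0.14). Runx3, a partner of T-bet, was called over Treg in both tables, and was 0.79 ± 0.16 and 0.96 ± 0.16 over TH2 and TH17 in the Odc table. The TH17 value was just above the fold threshold, and called, without TH1 replicate 4 (1.03) or without TH17 replicate 2 (1.01) or 3. Runx3 over TH2 in the Dohh table was 0.97 ± 0.12 and was called without TH1 replicate 3 (1.04) or TH2 replicate 1 (1.11). Havcr2, which encodes the inhibitory receptor TIM-3, was at 12.8, 9.84, 7.90 and 17.1 CPM in TH1 and 5.96, 3.41 and 6.83 in the Dohh table, with differences from TH2 of 1.86 ± 0.43 and 1.43 ± 0.39.

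Some genes of the list were not highest in TH1. Eomes, a T-box factor related to T-bet, was at 3.08, 0.723, 1.46 and 2.05 CPM in TH1 and 8.05, 8.43, 8.85 and 6.68 in Treg of the Odc table, where TH1 was lower than Treg (log2 difference -2.12). Eomes in TH1 of the Dohh table was 0.45 ± 0.40 from Treg and not called. Xcl1, a chemokine that draws cross-presenting dendritic cells, was at no more than 1.46 CPM in any TH1 library and at 9.36 to 19.7 CPM in Treg of the Odc table and 14.0 to 16.5 in the Dohh table. TH1 was lower than Treg in both (log2 differences -4.70 and -6.38).

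**Figure D3:**
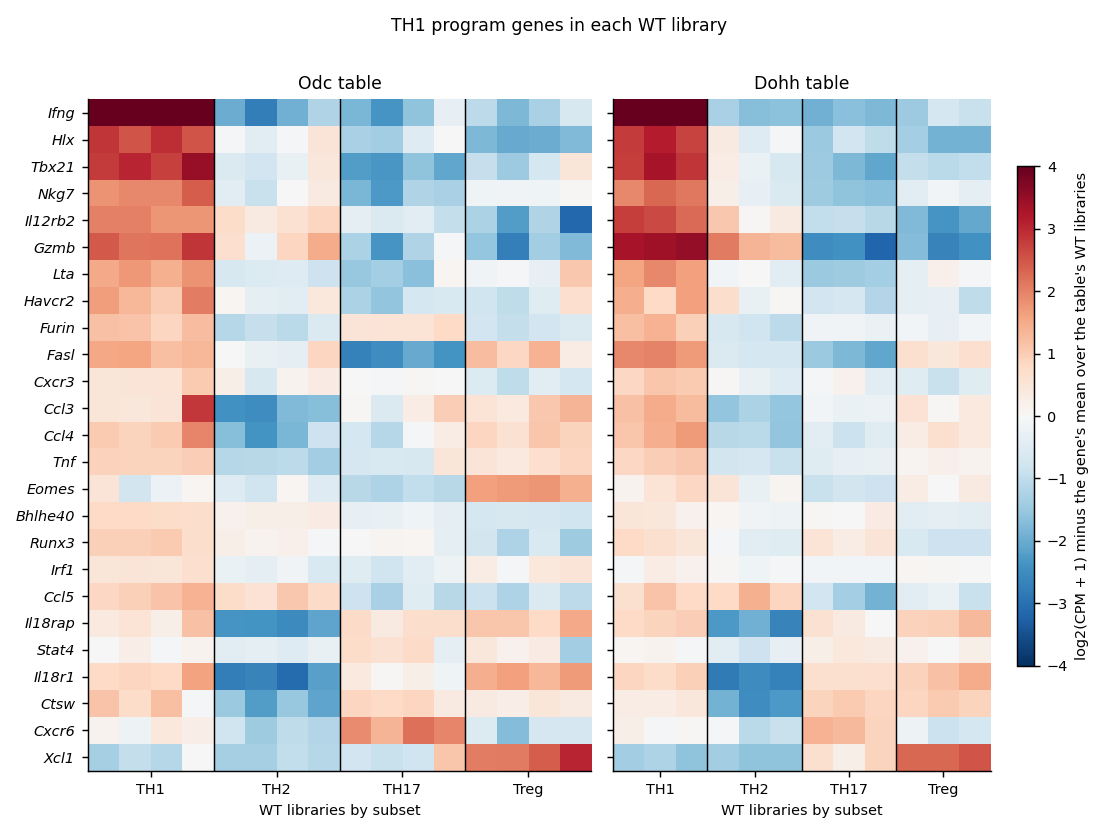
Heat map of TH1 program genes (rows) in each WT library of the Odc table (16) and the Dohh table (12), ordered by subset; colour is log2(CPM + 1) minus the mean of the gene over the WT libraries of that table. Ifng, Tbx21, Hlx and Nkg7 are highest in every TH1 library, while Xcl1 is highest in Treg.

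IL-12 and IFN-γ reach the cell through receptors of 2 chains each. Il12rb2, the signalling chain of the IL-12 receptor, was at 1348, 1337, 1129 and 1132 CPM in TH1, 553, 425, 502 and 597 in TH2, 259, 219, 246 and 171 in TH17 and 136, 68.8, 144 and 36.9 in Treg of the Odc table. TH1 was above every other library, by 1.25 ± 0.29, 2.47 ± 0.30 and 3.68 ± 0.32 log2 units. Dohh TH1 libraries held 1037, 955 and 728 CPM, and the differences were 2.01 ± 0.22, 3.58 ± 0.23 and 4.64 ± 0.25. Il12rb1, the chain shared with the IL-23 receptor, was at 229, 236, 200.3 and 210.1 CPM in TH1 and 227, 233, 227 and 216 in TH2, a difference of -0.05 ± 0.10 that was not called. It was called over Treg in both tables (1.58 ± 0.10 and 1.79 ± 0.13). Over TH17 it was 0.61 ± 0.10 (edgeR adjusted p = 1.1e-04) in the Odc experiment and 0.99 ± 0.12 (adjusted p = 1.2e-06) in that of Dohh. Both were under the fold threshold, and the Dohh value was called without TH1 replicate 3 or TH17 replicate 1 (both 1.07).

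Ifngr2, the signalling chain of the IFN-γ receptor, was lower in TH1 than in each other subset in both tables. It was at 17.5, 17.1, 22.7 and 15.5 CPM in TH1, 58.5, 66.2, 63.0 and 59.2 in TH2, 54.1, 60.4, 56.9 and 47.9 in TH17 and 84.7, 78.6, 89.5 and 47.1 in Treg of the Odc table. Levels in Dohh TH1 libraries were 15.9, 13.2 and 15.3 CPM, 67.7, 65.2 and 67.5 in TH2, 139, 136 and 156 in TH17 and 127, 108 and 104 in Treg. No TH1 library overlapped a library of another subset. The differences were -1.76 ± 0.17, -1.59 ± 0.17 and -2.04 ± 0.17 in the Odc experiment and -2.17 ± 0.12, -3.28 ± 0.12 and -2.93 ± 0.12 in that of Dohh (edgeR adjusted p = 1.4e-11, 1.8e-14 and 3.0e-14). Ifngr1, the ligand-binding chain, was higher in TH1 than in TH2 (1.49 ± 0.26 and 1.12 ± 0.11) and lower than in TH17 in the Dohh table (-1.11 ± 0.10). Against Treg it was -0.96 ± 0.26 and -0.98 ± 0.10, just under the fold threshold. In the Odc table the Treg value was called without Treg replicate 4 (-1.22) or TH1 replicate 3 (-1.01). The Dohh value was called with a mean count of at least 50 (-1.01) and without TH1 replicate 1, TH17 replicate 3, or Treg replicate 2 or 3 (down to -1.04).

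The IL-18 receptor genes were higher in TH1 than in TH2. Il18r1 was at 103, 107, 104 and 184 CPM in TH1, 6.19 to 12.4 in TH2, 52.4 to 77.2 in TH17 and 149 to 197 in Treg of the Odc table. Its difference from TH2 was 3.84 ± 0.23 and 3.76 ± 0.16 in the 2 tables. The accessory chain Il18rap was low in TH2 as well, with differences of 3.39 ± 0.24 and 3.84 ± 0.25. Against TH17 and Treg neither gene was called in either table. No TH1 library overlapped a TH17 library in Il18r1 of the Odc table (0.93 ± 0.19, edgeR adjusted p = 0.001), which lay just under the fold threshold and was called without TH1 replicate 1, TH1 replicate 3 or TH17 replicate 1, at 1.01, 1.01 and 1.02.

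Stat4, the factor downstream of the IL-12 receptor, varied less. It was at 39.6, 48.0, 37.6 and 43.4 CPM in TH1 of the Odc table and was not called in any of the 6 contrasts, with differences between -0.43 and 0.61. Of the 12 receptor and kinase genes, 5 were higher and 2 lower than in TH2, 1 and 2 than in TH17 and 2 and 1 than in Treg in the Odc table, beside 4.67% and 4.34%, 8.96% and 5.9%, and 10.8% and 8.29% of all genes tested. Dohh table counts were 4 and 2, 1 and 3, and 2 and 1, beside 5.4% and 4.41%, 8.23% and 7.81%, and 10.2% and 8.8%. Exons of Il12rb2, Stat4 and Ifng overlap another annotated gene over 40%, 26.7% and 25.9% of their length, those of Dohh, Phlda1 and Foxp3 over 47.5%, 33% and 31.5%, and whether the counting used strand is not stated, so reads of the overlapping gene cannot be told apart there.

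**Figure D4:**
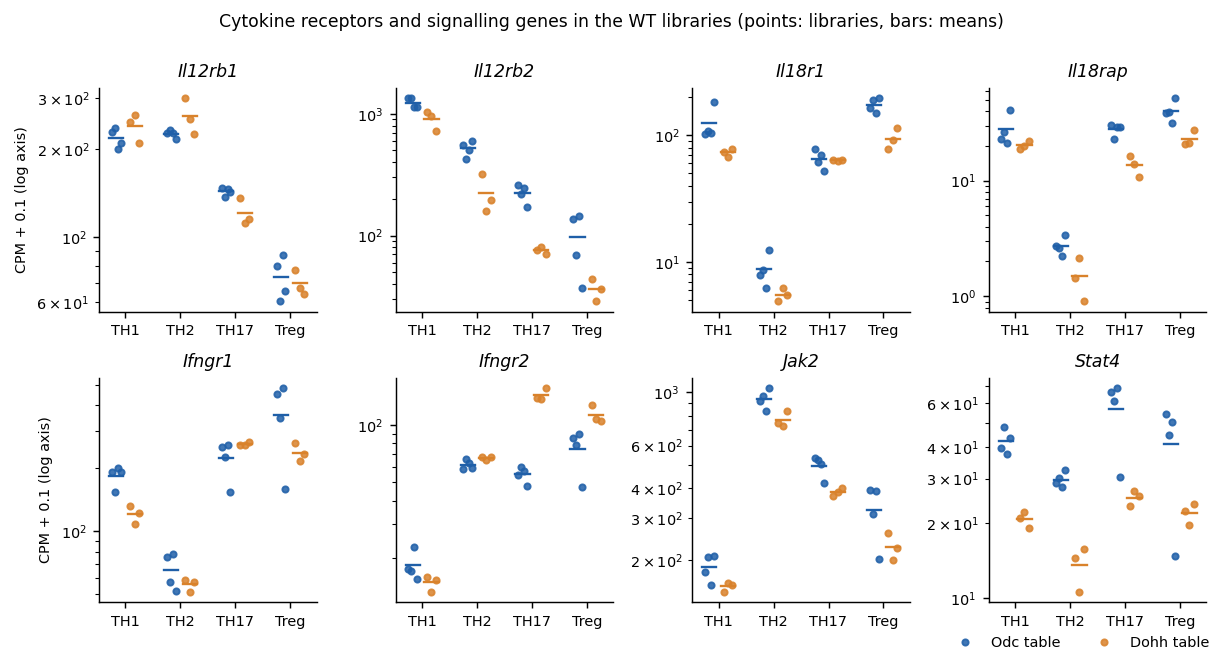
CPM + 0.1 on a log axis for the receptor and signalling genes Il12rb1, Il12rb2, Il18r1, Il18rap, Ifngr1, Ifngr2, Jak2 and Stat4 in the WT libraries of both tables; points are libraries and bars are means. Il12rb2 is highest and Ifngr2 lowest in TH1, and the IL-18 receptor genes are low in TH2.

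Promoter sequences are shown for 4 genes higher in TH1 in both tables because they carry the binding letters of the factors named above. They are the 250 bases before the transcription start in RefSeq (GRCm38.p6), written 5′ to 3′ on the strand of the gene. Capitals mark a STAT-type GAS match (TTCNNNGAA) or a T-box core match (TCACACC, or GGTGTGA where it lies on the opposite strand). The Ifng window is chr10:118440796-118441045 on the plus strand and its GAS match starts 249 bases before the start site. The Il12rb2 window is chr6:67376189-67376438 on the minus strand, with a GAS match 123 bases before the start. The Nkg7 window is chr7:43436888-43437137 on the plus strand, with a GAS match at 220 and a T-box match at 13 bases before the start. The Plac8 window is chr5:100572206-100572455 on the minus strand, with a T-box match at 248 bases.
Ifng: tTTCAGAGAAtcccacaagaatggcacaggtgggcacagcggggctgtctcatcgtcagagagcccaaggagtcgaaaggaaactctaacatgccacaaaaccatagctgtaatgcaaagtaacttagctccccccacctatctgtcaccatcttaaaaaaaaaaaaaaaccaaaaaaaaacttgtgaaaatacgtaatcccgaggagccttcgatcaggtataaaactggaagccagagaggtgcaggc
Il12rb2: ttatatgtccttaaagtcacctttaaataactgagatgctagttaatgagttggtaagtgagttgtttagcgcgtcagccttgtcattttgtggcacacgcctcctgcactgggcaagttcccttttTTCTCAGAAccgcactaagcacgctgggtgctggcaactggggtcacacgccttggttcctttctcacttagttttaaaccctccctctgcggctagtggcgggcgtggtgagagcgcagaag
Nkg7: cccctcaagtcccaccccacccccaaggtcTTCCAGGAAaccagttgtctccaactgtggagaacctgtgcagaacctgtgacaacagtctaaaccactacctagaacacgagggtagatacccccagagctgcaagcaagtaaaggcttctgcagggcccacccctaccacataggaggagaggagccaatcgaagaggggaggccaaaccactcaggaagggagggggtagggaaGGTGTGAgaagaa
Plac8: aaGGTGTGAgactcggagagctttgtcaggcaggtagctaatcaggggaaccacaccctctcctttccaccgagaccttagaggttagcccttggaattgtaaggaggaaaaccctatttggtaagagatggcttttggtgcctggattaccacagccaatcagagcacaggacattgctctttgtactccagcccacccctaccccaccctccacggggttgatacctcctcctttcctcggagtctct

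Such matches were counted over all windows as a description, with no test. Promoter windows were matched for 96 of the 130 genes higher in TH1 in both tables and for 33 of the 41 lower. GAS letters stood in 6 of the 96 (6.25%), in 1 of the 33 (3.03%) and in 7.18% of all 27025 windows. T-box letters stood in 5 of the 96 (5.21%), in 3 of the 33 (9.09%) and in 3.31% of all. The core of the interferon-stimulated response element (ISRE, GAAA followed by any 2 bases and GAAA again) stood in 6 of the 96 (6.25%), in 0 of the 33 and in 3.04% of all. Both strands were searched, and a match is only a run of letters, not a site shown to be bound. The Tbx21 window (chr11:97115332-97115581) held none of the 3 motifs. The 23 windows matched for the IFN-γ response list held GAS letters in 9 (39.1%) and ISRE letters in 12 (52.2%).

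Genes of the cytotoxic granule, known from CD8 T and NK cells, were mostly higher in TH1 than in TH17 and Treg. Of 17 tested in the Odc table, 7 were higher and 1 lower than in TH2, 10 and 0 than in TH17, and 12 and 0 than in Treg, beside 4.67% and 4.34%, 8.96% and 5.9%, and 10.8% and 8.29% of all genes tested. Of 15 in the Dohh table the counts were 6 and 1, 10 and 0, and 11 and 0, beside 5.4% and 4.41%, 8.23% and 7.81%, and 10.2% and 8.8%. At an unadjusted p under 0.05, 0 were lower than in TH17 and 1 than in Treg in the Odc table, and 2 and 2 in the Dohh table. The median log2 fold change was 0.43, 2.72 and 1.88 in the Odc table and 0.64, 3.17 and 2.07 in the Dohh table. Higher than in each other subset in both tables were Gzmb, Nkg7, Prf1 and Serpinb9, with Gzmf in the Odc table and Fasl in the Dohh table.

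Gzmb, granzyme B, was at 1772, 1424, 1464 and 2335 CPM in TH1, 519, 273, 586 and 909 in TH2, 134, 61.7, 140.4 and 305 in TH17 and 110.1, 48.0, 123 and 93.8 in Treg of the Odc table. TH1 libraries were the highest and TH2 libraries the next. Dohh TH1 libraries held 1069.8, 1161 and 1267 CPM, TH2 460.5, 282 and 263, TH17 18.7, 19.5 and 11.2 and Treg 31.97, 16.3 and 19.4. The difference from TH2 was 1.61 ± 0.41 and 1.80 ± 0.26, and that from TH17 was 3.45 ± 0.44 and 6.13 ± 0.32. The TH17 difference was smaller in the Odc table, with an Odc minus Dohh value of -2.66 ± 0.56 (edgeR interaction, adjusted p = 0.0014).

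Prf1, perforin, was at 98.9, 71.2, 88.1 and 147 CPM in TH1 and at 6.56 to 41.0 elsewhere in the Odc table, with differences of 1.94 ± 0.32, 2.27 ± 0.32 and 3.51 ± 0.35. They were, in the Dohh table, 2.25 ± 0.22, 3.55 ± 0.24 and 4.78 ± 0.27. Nkg7, a granule membrane protein, was at 182, 196, 197 and 279 CPM in TH1 and 184, 236 and 208 in the Dohh table. Its differences from TH2, TH17 and Treg were 2.23 ± 0.25, 3.70 ± 0.27 and 2.16 ± 0.24, and in the Dohh table, 2.32 ± 0.16, 3.76 ± 0.18 and 2.46 ± 0.16. Serpinb9, the inhibitor that protects cells from granzyme B, was 1.40 ± 0.30 over TH2 in the Odc table, and without TH1 replicate 4 the value was 0.91 and was not called. It was, in the Dohh table, 1.77 ± 0.18.

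Gzma, granzyme A, went the other way against TH2. It was at 42.8, 21.8, 44.6 and 53.7 CPM in TH1 and 323, 131, 224 and 114 in TH2 of the Odc table, and at 35.9, 15.3 and 27.2 and 287, 180.2 and 227 in the Dohh table. TH1 was lower than TH2 (log2 differences -2.28 and -3.14) and higher than Treg by 3.66 ± 0.45 and 3.70 ± 0.33. Gzma and Gzmb therefore had opposite order in TH1 and TH2 in both tables. Fasl, the death ligand, was called over TH2 and TH17 in both tables and over Treg in the Dohh table (1.37 ± 0.17), with 0.45 ± 0.27 in the Odc table.

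Chemokines and their receptors held genes called in each direction. Of 19 tested, 6 were higher and 3 lower than in TH2, 3 and 6 than in TH17, and 8 and 4 than in Treg in the Odc table, beside 4.67% and 4.34%, 8.96% and 5.9%, and 10.8% and 8.29% of all genes tested. Counts in the Dohh table were 7 and 3, 7 and 9, and 8 and 7, beside 5.4% and 4.41%, 8.23% and 7.81%, and 10.2% and 8.8%.

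Cxcr3, the receptor of the IFN-γ-induced chemokines and a standard TH1 marker, was at 15.1, 15.2, 15.8 and 22.5 CPM in TH1 of the Odc table. Its differences there were 0.64 ± 0.20, 0.73 ± 0.20 and 1.47 ± 0.21, and only that from Treg was called. It was, in the Dohh table, at 17.7, 21.6 and 20.9 CPM and called against all 3 (1.32 ± 0.20, 1.16 ± 0.19 and 1.74 ± 0.20), although without TH17 replicate 3 the second value was 0.99. Ccl3 and Ccl4, inflammatory chemokines that attract leukocytes, were called over TH2 in both tables (4.21 and 3.08 in the Odc table). Ccl3 in TH1 replicate 4 of the Odc table was 75.8 CPM against 13.6 to 14.5 in the other TH1 libraries, and its difference from TH17 there, 1.27 ± 0.50, was 0.20 without that replicate and lost its call in most of the other fits tried. Over TH2 the Ccl3 value was 3.14 and the Ccl4 value 2.77 without that replicate, and both were still called.

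Of 19 coinhibitory and costimulatory receptors, 3 were higher and 3 lower than in TH2, 8 and 1 than in TH17, and 7 and 3 than in Treg in the Odc table, beside 4.67% and 4.34%, 8.96% and 5.9%, and 10.8% and 8.29% of all genes tested. Counts by edgeR were 3 and 2, 10 and 0, and 8 and 2 in the Dohh table, beside 5.4% and 4.41%, 8.23% and 7.81%, and 10.2% and 8.8%. DESeq2 called 1 lower than in TH17 there and 0 in the Odc table, and 3 and 1 were lower at an unadjusted p under 0.05. Cd40lg, the ligand with which helper T cells license macrophages, was at 103, 126, 87.5 and 137 CPM in TH1, with differences of 1.59 ± 0.17, 2.05 ± 0.17 and 1.15 ± 0.17. It was, in the Dohh table, at 65.8 ± 6.09 CPM (mean ± SD, n = 3) and 2.25 ± 0.15, 1.63 ± 0.15 and 1.41 ± 0.15 over the others. Lag3 was alike in TH1 and TH2 in level (464, 455 and 382 and 511, 401 and 337 CPM in the Dohh table) and higher than in Treg by 2.55 ± 0.16. Pdcd1, which encodes PD-1, was lower in TH1 than in Treg in both tables, with log2 differences of -1.25 and -1.55. Tigit was lower than in TH2 (-1.28 ± 0.17 and -1.14 ± 0.18) and higher than in TH17 (1.58 ± 0.17 and 1.39 ± 0.19).

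Of 29 genes induced by IFN-γ and tested in the Odc table, 12 were higher in TH1 and 1 lower than in TH2, beside 4.67% and 4.34% of all genes, and 12 and 2 than in TH17, beside 8.96% and 5.9%. Against Treg 5 were higher and 3 lower, near the 10.8% and 8.29% of all genes. Of 23 tested in the Dohh table, 7 and 1, 7 and 2, and 6 and 0 were, beside 5.4% and 4.41%, 8.23% and 7.81%, and 10.2% and 8.8% of all genes (DESeq2 also called 0 lower than in Treg, and 5 were lower at an unadjusted p under 0.05). The median log2 fold change was 0.83, 0.90 and 0.11 in the Odc table and 0.48, 0.53 and 0.11 in the Dohh table. The Dohh table held 5 counts or fewer over its WT libraries for 219 genes with 500 or more in the Odc table, among them Irf8, Igtp, Ifi47, Gbp4 and Gbp6, so these could be read in the Odc table alone.

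Nlrc5, the transactivator of class I MHC genes, was at 297, 319, 274 and 296 CPM in TH1, 45.2, 28.0, 46.3 and 37.0 in TH2, 97.02, 81.6, 89.4 and 100.4 in TH17 and 114, 97.5, 121 and 128 in Treg of the Odc table. Levels in Dohh TH1 libraries were 310.0, 340.0 and 325 CPM, and the differences of the 2 tables, 2.92 ± 0.14 and 2.83 ± 0.12 over TH2 and 1.36 ± 0.13 and 1.68 ± 0.12 over Treg, were close to each other. Ciita, the class II transactivator, was lower than in each other subset in the Odc table, at 0.440, 0.434, 0.732 and 0.585 CPM in TH1 against 0.729 to 4.57. The TH1 values lay near the level of 3 counts per library, about 0.44 CPM there, and the ranges overlapped. In the Dohh table Ciita was tested and was not called lower than in each other subset. The GTPase gene Gbp7 was at 57.7, 44.0, 37.2 and 35.5 CPM in TH1 against 2.00 to 6.94 in TH2, and called over TH2 and TH17 in both tables. Gbp2 was higher than in TH2 in the Odc table (1.64 ± 0.13) and lower than in TH17 in both (-1.15 ± 0.13 and -1.91 ± 0.14). Irf1 was called in 1 of 6 contrasts, over TH17 in the Odc table (1.01 ± 0.14), and that call was lost without TH1 replicate 4 (0.97), without TH17 replicate 1 or 2 (0.9987 and 0.92) and with all 8 groups in the fit (0.99).

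In the type I interferon list, 1 gene was higher and 0 lower than in TH2 of 16 in the Odc table, beside 4.67% and 4.34% of all genes, and 2 and 0 of 13 in the Dohh table, beside 5.4% and 4.41%. At an unadjusted p under 0.05, 1 was lower in each table. Against TH17 3 and 6 were higher (8.96% and 8.23% of all genes) and 0 lower (5.9% and 7.81%), with 2 and 0 lower at an unadjusted p under 0.05. Against Treg 2 were higher and 10 lower in the Odc experiment, beside 10.8% and 8.29%, and 2 and 2 in that of Dohh, beside 10.2% and 8.8%. Usp18, which removes ISG15 from proteins, was at 45.9, 50.8, 39.4 and 51.5 CPM in TH1 against 0.577 to 15.1 elsewhere in the Odc table, and 23.8, 29.3 and 30.6 in the Dohh table, where it was not called over TH2 (0.57 ± 0.16). Oas3, an antiviral 2′-5′ oligoadenylate synthetase, was higher than in each other subset in the Dohh table (1.20 ± 0.15, 3.43 ± 0.17 and 2.31 ± 0.16).

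The programs of the other lineages were counted the same way. Of 17 TH2 program genes, 12 were lower than in TH2 in each table and 1 was higher, beside 4.34% and 4.41% of all genes lower and 4.67% and 5.4% higher. Against TH17 4 were higher and 2 lower in the Odc table (8.96% and 5.9% of all genes) and 5 and 5 in the Dohh table (8.23% and 7.81%). Against Treg 6 and 4 (10.8% and 8.29%) and 6 and 7 (10.2% and 8.8%) were. The median was -2.62 and -4.58 against TH2 and between -0.34 and 0.03 against TH17 and Treg. Gata3 was lower than in TH2 (log2 differences -5.12 and -4.58), as was Il13 (-5.90 and -5.23). Il5 was lower too, at no more than 0.439 CPM in any TH1 library (fitted values -7.30 and -7.26). Each Odc TH1 library held 3 counts or fewer of Il5, so its Odc value is not an exact fold. The 1 higher gene was Il1rl1, the receptor of IL-33 known from TH2 and Treg cells. It was at 6.60, 6.51, 2.63 and 17.5 CPM in TH1 and 1.98, 2.26, 2.02 and 2.14 in TH2 of the Odc table, and 2.68, 3.82 and 1.62 and 0.839, 0.967 and 0.688 in the Dohh table. It was called over each other subset in both tables, but 4 of those 6 calls depended on the fit. The call over TH2 in the Odc table was lost when the test asked for a change beyond 2-fold (edgeR glmTreat, adjusted p = 0.17). Against TH17 in the Odc table the value was 0.65 without TH1 replicate 4 (edgeR adjusted p = 0.2) and 1.04 without TH17 replicate 2 (adjusted p = 0.083), and the call was also lost without TH17 replicate 3 (adjusted p = 0.056), with no low-count filter or with all 8 groups in 1 fit. The call over TH2 in the Dohh table was lost without TH1 replicate 2 (1.38, edgeR adjusted p = 0.058) and with all 8 groups in 1 fit (1.67, adjusted p = 0.18), and that over Treg with all 8 groups (1.93, adjusted p = 0.065).

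Of 18 TH17 program genes, 11 were lower and 0 higher than in TH17 in the Odc table (1 higher at an unadjusted p under 0.05), beside 5.9% and 8.96% of all genes, and 10 and 2 in the Dohh table, beside 7.81% and 8.23%. Against TH2, 3 were higher and 6 lower in the Odc table (4.67% and 4.34% of all genes) and 4 and 4 in the Dohh table (5.4% and 4.41%). Against Treg 7 and 6 (10.8% and 8.29%) and 8 and 6 (10.2% and 8.8%) were. Ahr, the aryl hydrocarbon receptor, was lower in TH1 than in each other subset in both tables. It was at 5.87, 6.65, 5.27 and 5.85 CPM in TH1, 61.8, 61.3, 56.8 and 61.7 in TH2, 259, 249, 236 and 152 in TH17 and 17.2, 10.2, 16.6 and 12.3 in Treg of the Odc table. Il17f was at 0.587, 0, 0.878 and 1.02 CPM in TH1 against 1385 to 1493 in TH17. Its difference from Treg in the Odc table, -2.06 ± 0.83 (edgeR adjusted p = 0.048), was -2.03 with a replicate block (adjusted p = 0.068), -2.41 without TH1 replicate 4 (adjusted p = 0.056) and -1.20 without Treg replicate 4 (adjusted p = 0.26), and leaving out any of several other libraries also ended the call. In the Dohh table it was -2.32 ± 0.42 (adjusted p = 1.0e-04).

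Of 18 Treg program genes, 7 were lower and 2 higher than in Treg in the Odc experiment and 8 and 3 in that of Dohh, beside 8.29% and 10.8% and then 8.8% and 10.2% of all genes, so the 2 higher genes stand near the share of all genes. Against TH2, 3 were higher and 6 lower in each table (4.67% and 4.34%, then 5.4% and 4.41% of all genes), and against TH17 5 and 5 (8.96% and 5.9%, then 8.23% and 7.81%). Nrp1, neuropilin-1, was lower in TH1 than in each other subset in both tables, at 3.96, 5.21, 4.68 and 6.58 CPM in TH1 against 91.4, 132, 78.2 and 153 in Treg. Itgae, the integrin CD103 that TGF-β induces, was also lower than in each, at 1.17 to 2.89 CPM against 14.3 to 25.4 in TH17 and 9.58 to 19.6 in Treg. TGF-β response genes were counted against TH17 and Treg, both grown with TGF-β, and against TH2. Of 14 tested in the Odc table, 0 were higher and 8 lower than in TH17, 1 and 7 than in Treg, and 1 and 3 than in TH2, beside 8.96% and 5.9%, 10.8% and 8.29%, and 4.67% and 4.34% of all genes. Of 15 in the Dohh table, 0 and 8, 1 and 10, and 1 and 1 were, beside 8.23% and 7.81%, 10.2% and 8.8%, and 5.4% and 4.41%. Higher than in TH17 at an unadjusted p under 0.05 were 2 in the Odc experiment and 0 in that of Dohh. Tgfbr1, a receptor chain, was -3.52 ± 0.20 and -2.21 ± 0.18 from Treg, and Pmepa1, a feedback inhibitor, was -3.18 ± 0.25 and -2.52 ± 0.11.

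Prdm1, which encodes BLIMP-1, a repressor induced late in effector cells, was higher in TH1 than in each other subset in both tables. It was at 44.0, 32.8, 40.8 and 27.2 CPM in TH1 against 4.27 to 14.5 elsewhere, and at 24.6, 18.9 and 19.2 against 1.13 to 4.53 in the Dohh table. Il2, which BLIMP-1 is known to repress, was at no more than 0.585 CPM in any TH1 library of the Odc table and 1.24 to 7.28 CPM in TH2. TH1 was lower in Il2 than TH2 (log2 differences -3.40 and -1.69) and lower than TH17 (-3.76 and -2.27). Il2ra, the high-affinity IL-2 receptor chain, was at 4013, 4398, 3349.6 and 4493 CPM in TH1 of the Odc table and not called there, and called over TH17 and Treg in the Dohh table (1.16 ± 0.14 and 1.03 ± 0.14). Entpd1, which encodes the ectoenzyme CD39 of the Treg list, was higher in TH1 than in each other subset in the Odc table (1.86 ± 0.18, 2.44 ± 0.19 and 1.71 ± 0.18), and in the Dohh table its difference from Treg was 0.90 ± 0.17.

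**Figure D5:**
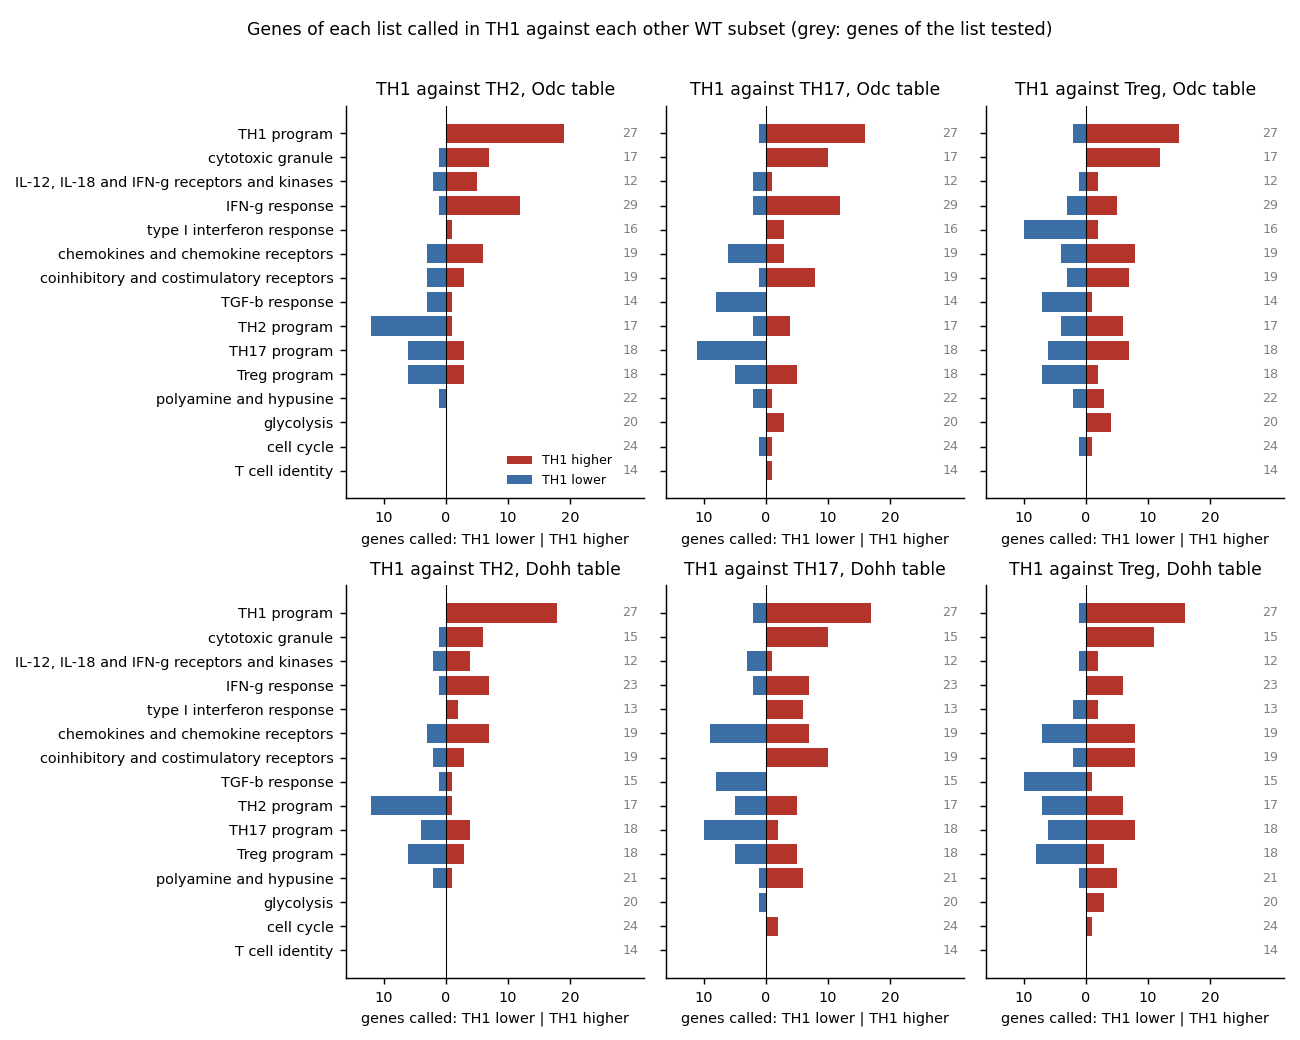
Genes of 15 lists called higher (to the right) or lower (to the left) in TH1 against TH2, TH17 and Treg in the Odc table (upper row) and the Dohh table (lower row); grey numbers are the genes of each list tested. The TH1 program reaches 19 of 27 higher against TH2 in the Odc table, and the TH2 program 12 of 17 lower against TH2 in both tables.

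Odc1 and Dohh, the genes of the enzymes deleted in these 2 experiments, were not called between WT TH1 and any other subset. Odc1 was at 428, 469, 422 and 730.5 CPM in TH1, 487, 549, 503 and 717 in TH2, 663, 663, 725 and 854 in TH17 and 367, 404, 386 and 479 in Treg of the Odc table, with the range of TH1 overlapping that of each other subset through replicate 4. Within replicate numbers of the Odc table, TH1 was below TH17 and above Treg in all 4, and with a replicate block the differences were -0.53 (edgeR adjusted p = 1.5e-05) and 0.30 (adjusted p = 0.0029), both under the fold threshold. Odc1 was, in the Dohh table, at 481, 544 and 513 CPM in TH1, 661, 644 and 587 in TH2, 569.8, 579 and 551 in TH17 and 415, 433 and 349.6 in Treg. Within each replicate number of the Dohh table, TH1 was below TH17 too. The difference of -0.14 ± 0.11 did not pass an adjusted p of 0.05 in the unblocked fit (edgeR adjusted p = 0.28). Those from TH2 and Treg were -0.30 ± 0.11 (adjusted p = 0.035) and 0.36 ± 0.11 (adjusted p = 0.0078). Dohh was at 39.7, 39.1 and 35.8 CPM in TH1 of the Dohh table and between -0.11 and -0.01 log2 units from the others there. Eif5a, the protein that carries hypusine, was higher than in Treg in the Odc table by 1.03 ± 0.19 and higher than in TH17 in the Dohh table by 1.02 ± 0.11, with 0.99 ± 0.11 against Treg. These values stood close to the fold threshold. The first was 0.89 without Treg replicate 1 and 0.91 without Treg replicate 3, and the second 0.97 without TH17 replicate 1 and just under 1 without TH17 replicate 3 or with all 8 groups in 1 fit, so these were then not called. The Treg value of the Dohh table passed the threshold without TH1 replicate 3 (1.01) or Treg replicate 2 (1.09).

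Of 22 polyamine and hypusine genes tested in the Odc table, 0 were higher and 1 lower than in TH2 (DESeq2 also called 0 higher, and 3 were higher at an unadjusted p under 0.05), 1 and 2 than in TH17, and 3 and 2 than in Treg. The shares of all genes called were 4.67% and 4.34%, 8.96% and 5.9%, and 10.8% and 8.29%. Of 21 in the Dohh table, 1 and 2, 6 and 1, and 5 and 1 were, beside 5.4% and 4.41%, 8.23% and 7.81%, and 10.2% and 8.8% of all genes. Slc7a5, the large neutral amino acid transporter, was at 426, 435 and 324 CPM in TH1, 212, 163 and 146 in TH2, 91.1, 91.02 and 87.0 in TH17 and 122, 108 and 131 in Treg of the Dohh table, and called over each. In the Odc table its differences were 0.68 ± 0.34, 0.36 ± 0.33 and 0.58 ± 0.34, where Treg replicate 4 was at 359.7 CPM against 103 to 139 in the others, and without that library the Treg value was 1.16 and was called. Srm, spermidine synthase, was 1.36 ± 0.15 over Treg in the Dohh table and 0.87 ± 0.48 in the Odc table, where without Treg replicate 4 it was 1.78 and with a replicate block 1.01 (edgeR adjusted p = 0.0011).

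Glycolysis and cell cycle genes were read against the shares of all genes called, which were, higher and lower against TH2, TH17 and Treg, 4.67% and 4.34%, 8.96% and 5.9%, and 10.8% and 8.29% in the Odc table and 5.4% and 4.41%, 8.23% and 7.81%, and 10.2% and 8.8% in the Dohh table. Of 20 glycolysis genes, 0 were called against TH2 in either table by edgeR, while 3 were higher than in TH17 and 4 than in Treg in the Odc table, and 3 than in Treg with 1 lower than in TH17 in the Dohh table. Of 24 cell cycle genes, 0 were called against TH2 in either table, 1 higher and 1 lower against each of TH17 and Treg in the Odc table, and 2 and 1 higher in the Dohh table. At an unadjusted p under 0.05 against TH2, with no fold threshold, 4 glycolysis genes were higher and 0 lower in the Odc experiment and 3 and 4 in that of Dohh, and 1 and 3 and 2 and 11 cell cycle genes were. At the same unadjusted p in the Odc table, 16 glycolysis genes were higher and 1 lower than in TH17 and 16 higher and 0 lower than in Treg, while 3 cell cycle genes were higher and 13 lower than in TH17 and 1 higher and 19 lower than in Treg. In the Dohh table these were 2 and 4 and 9 and 1 for glycolysis, and 9 and 7 and 7 and 8 for the cell cycle. DESeq2 called 0 genes of either list against TH2 in both tables.

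Whether a difference had the same size in both tables was tested in 1 fit of all WT libraries with an interaction of table and subset. Of 12185 genes, 16 (0.131%) differed for TH1 against TH2, 1164 (9.55%) for TH1 against TH17 and 632 (5.19%) for TH1 against Treg. With a replicate block the TH2 count was 69, and leaving out single libraries moved it between 2 and 24. The TH1 against TH2 contrast was thus the one with the fewest differences in size. Table and mouse line cannot be told apart here, and the sample labels name no sequencing run or date of culture. Genes described above that differed in the TH17 contrast were Cpd, Phlda1, Src, H2-Aa, Ighm, Serpinb5, Gzmb, Prf1, Serpinb9, Il12rb2, Ifngr2, Il13, Il17a, Il23r, Foxp3, Cd79b, Oas3, Gbp7, Slc7a5 and Srm. Icos, a costimulator not described above, also differed and was at 711, 576, 579 and 433 CPM in TH1 and 744, 658, 705 and 607 in TH17 of the Odc table, and 443, 371 and 416 and 175, 203 and 168 in the Dohh table. For Ifng and Tbx21 the difference between tables was 0.67 ± 0.70 and 0.12 ± 0.47 in the TH2 contrast and was not called in any contrast.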

How the data were processed

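RNA was prepared as stranded mRNA libraries. The authors deposited 1 table of raw counts per gene for each experiment; their processing notes name STAR, featureCounts, deepTools, DESeq2 and mm10, with versions and strand setting not given in the sources used here. WT columns of the 2 tables were mapped to samples by name, and 27 columns of deficient libraries were not used. Counts were filtered (filterByExpr), scaled (TMM) and fitted per table in edgeR 4.0.16 (R 4.3.3), with 1 mean for each of the 4 subsets, and tested on simulated data beforehand. Folds given as bounds set a group with 3 counts or fewer in every library at 3 counts per library. Some folds with such a group are fitted values instead and are not exact. Among them are Il5 in the Odc table and, in the plot of differences from the nearest subset, St6galnac5 (Odc), Chl1 and Dnah3 (Dohh). In the Odc table, libraries of the same number deviated together in every pair of subsets (residual correlations 0.297 to 0.756, all above 0.1), and Xist and Ddx3y followed the number (in the Dohh table too), so the numbers pair these samples. Named genes were Ifng, Tbx21, the 15 highest and 10 lowest by fold to the nearest subset in the Odc table without overlap of libraries (at least 5 CPM), and list members. The members and lists were chosen with earlier results of these data known. Alternatives were RLE, DESeq2 1.42.0, filters (no filter, or a mean count of 50), glmTreat, adjusted p alone, all 8 groups, only the groups compared, a replicate block, and leaving out each library. Promoters came from RefSeq GRCm38.p6, and motifs were counted without a test. Some members counted in the lists are not reported here by name.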

Additional observations from a re-analysis of the deposited data

Results flagged for a closer look

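In 80 groups of libraries (the genes described by rank, in each subset of the Odc table where at least 1 of the 4 libraries reached 1 CPM), 6 held 1 library far from the others, and chance gives about 1 in 20. TH1 replicate 4 was that library in 5 of the 6, with Ifng at 1890 CPM, Chl1 at 20.77, Mt3 at 45.92, Plac8 at 577.6 and Gpr83 at 1.901. The other was TH2 replicate 4, with Dclk1 at 4.568 CPM. Without TH1 replicate 4 these 5 genes were still called against each other subset in the Odc table.

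Of 72 gene and contrast pairs among the same genes, 12 differed in size between the tables (edgeR interaction, adjusted p below 0.05, Odc minus Dohh in log2 units). Higher in the Odc table were Plac8 against TH2 by 1.358 and against Treg by 1.422, Sema3b against Treg by 1.155, Serpinb5 against TH17 by 1.021, H2-Aa against TH17 by 3.182 and Src against TH17 by 1.466. Lower in the Odc table were Cpd against TH2 (-1.182), TH17 (-1.616) and Treg (-1.137), Gpr83 against Treg (-1.701), Phlda1 against TH17 (-1.671) and Ccr8 against TH2 (-1.489). For H2-Aa and Src the positive value means that TH1 lay further below TH17 in the Dohh table. The genes were ranked by their Odc values, which favours a larger difference in the Odc table, and apart from H2-Aa and Src the values listed go that way. What sets the tables apart was not tested.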

How the results depend on the processing

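Counts are total calls. A mean count of 50, glmTreat and adjusted p alone changed the 1161 Odc calls against TH2 to 590, 514 and 3023, the 1914 against TH17 to 961, 860 and 5700, and the 2454 against Treg to 1345, 1436 and 6564. For the Dohh table, 1258 became 632, 537 and 4177, 2057 became 1145, 1100 and 5732, and 2439 became 1388, 1446 and 6224. Genes higher than each went from 222 to 105, 91 and 539 (Odc) and 231 to 93, 92 and 746 (Dohh), lower from 87 to 46, 14 and 295 and 126 to 68, 34 and 571, and in both tables from 130 to 52, 56 and 308 and 41 to 22, 8 and 131. With all 8 groups in the Dohh fit these were 148 higher and 74 lower. For a mean count of 50 fewer genes were tested, glmTreat tests the 2-fold change itself, and adjusted p alone drops the fold threshold. For the rest the cause was not tested. Adjusted p alone gave 27, 3318 and 2141 genes differing between tables against TH2, TH17 and Treg (16, 1164 and 632 before), and a replicate block gave 69 against TH2. RLE kept all these counts within 1.5 times, as did DESeq2 and no filter for the calls within tables and fitting only the 2 groups compared for the single contrasts, the counts they were run on.

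Leaving out 1 library gave 1118 to 1234, 1848 to 2022 and 2433 to 2587 calls against TH2, TH17 and Treg in the Odc table and 1179 to 1345, 2057 to 2176 and 2418 to 2559 in the Dohh table. Higher than each ranged from 210 to 241 (Odc), 207 to 257 (Dohh) and 123 to 139 (both), lower from 76 to 91, 108 to 131 and 33 to 44. Differences between tables ranged from 2 to 24 against TH2, 953 to 1389 against TH17 and 433 to 717 against Treg. The TH2 count fell to 10 or 9 without Odc TH1 replicate 2 or 3, 9 or 10 without Odc TH2 replicate 2 or 4, 2 or 4 without Dohh TH1 replicate 1 or 2, and 2 or 4 without Dohh TH2 replicate 1 or 2. Of 10299 alternatives over 80 named genes 132 lost the call, 71 gained it and 0 changed sign. Ms4a6d and Havcr2 against TH2 in the Dohh table lost theirs with all 8 groups (adjusted p = 0.081 and 0.069). Among named genes outside the ranking, glmTreat ended 25 calls and left 140 outcomes as they were in the Odc table, and 25 and 134 in the Dohh table. Those ended in the Odc table include Serpinb9 and Fasl over TH2 (glmTreat adjusted p = 0.51 and 0.49) and Cd40lg over Treg (0.44). In the Dohh table the replicate numbers did not deviate together in every pair (TH1 and Treg replicate 3, -0.0557). Beyond the results given above the replicate block changed no other call of a named gene. It did move the counts. Calls against TH2 in the Odc table went from 1161 to 1251, and genes lower than each there from 87 to 104. In both tables, genes lower than each went from 41 to 51 and higher from 130 to 133. Depth limits genes at or under 3 counts per library, 0.231 to 0.44 CPM here.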

Other observations

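Of 15 IL-2 and STAT5 response genes tested in the Odc table, 1 was higher in TH1 than in TH2, 2 higher and 2 lower than in TH17 and 4 and 2 than in Treg, and of 14 in the Dohh table, 1, 4 and 4, and 5 and 2 were. Of 16 naive and memory T cell genes, 2 were higher than in TH2, 2 lower than in TH17 and 4 higher and 2 lower than in Treg in the Odc table, against 4, 2 higher and 4 lower, and 5 higher and 3 lower in the Dohh table. The shares of all genes called higher and lower were 4.67% and 4.34% against TH2, 8.96% and 5.9% against TH17 and 10.8% and 8.29% against Treg in the Odc table, and 5.4% and 4.41%, 8.23% and 7.81%, and 10.2% and 8.8% in the Dohh table. Nothing particular to these lists is read from counts this small. Gamma-delta T cell markers gave at most 1 call per contrast, summing to 23.9 to 63.3 CPM in TH1 of the Odc table and 46.2 to 51.9 in the Dohh table. Basophil and mast cell markers summed to 15.5 to 20.5 and 7.08 to 8.46 CPM in TH1, against 6.79 to 11.99 and 6.04 to 7.41 in TH2, 31.4 to 51.7 and 18.01 to 26.3 in TH17, and 26.6 to 47.1 and 14.2 to 21.9 in Treg. Of 5 tested in the Odc table, 2 were higher and 0 lower in TH1 than in TH2, 0 and 3 than in TH17, and 0 and 1 than in Treg, and of 4 in the Dohh table, 1 and 0, 0 and 1, and 1 and 1 were. Each of these 0 counts was also 0 by DESeq2 and at an unadjusted p under 0.05, apart from 1 gene lower than in TH2 of the Odc table at that p. No erythroid marker passed the low-count filter in either table.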
